A study of Rattus norvegicus with 36 samples.

Results

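The D-type cyclins Ccnd1, Ccnd2 and Ccnd3, their catalytic partners Cdk4 and Cdk6, and Cdkn1b, which encodes the inhibitor p27, were followed through differentiation and dedifferentiation of iAM-1 cells. The 6 genes were picked by symbol from the 12948 rows of the deposited CPM table and looked up in all 36 libraries. They were picked because Ccnd1 was lower at the end of both phases although division resumed in the second. The Ccnd1 values, and the comparisons of day 9 with day 0 and of day 18 with day 9 for every one of the 6, are therefore given as descriptions without a test. Day 18 against day 0 adds up those comparisons. Its p-values for the other genes are therefore not independent of the choice. A filter of at least 1 CPM in at least 4 libraries kept 5 of the 6 genes, and Ccnd2 did not pass it.

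iAM-1 is a line of conditionally immortalised atrial heart muscle cells from newborn Wistar rats, and every library comes from this 1 line. The cells were grown in medium with 2% serum and 100 ng/ml doxycycline up to day 0 (D0), without doxycycline on days 1, 2, 3 and 9 (D1, D2, D3, D9), and again with 100 ng/ml doxycycline on days 10, 11, 12 and 18 (D10, D11, D12, D18). Each of the 9 days has 4 libraries of poly(A) RNA from whole cultures. In such bulk RNA, fewer cells of a type and less RNA per cell cannot be told apart. A transferred T antigen construct, whose RNA is a row of the table, measured 2732 to 3098 CPM at D0, 27.6 to 33.9 at D9 and 4578 to 5474 at D18. The labels do not say whether the libraries of a day are separate cultures, and every p-value below rests on the spread between those libraries, which may be technical.

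D-type cyclins switch on Cdk4 and Cdk6 in response to growth signals, and the active kinases phosphorylate the retinoblastoma proteins, which releases E2F factors to transcribe the genes of DNA replication. p27 binds these complexes, holds Cdk2 complexes inactive, and also helps D-type cyclins to assemble with Cdk4. Heart muscle cells lower much of this machinery after birth as they leave the cell cycle. Large T antigens of polyomaviruses bind the retinoblastoma proteins directly.

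The recovered reads came to 14.9 to 43.1 M (M, 1e+06 reads) in a library, the median library holding 18.5 M. Within a day the libraries correlated at r = 0.980 or higher across genes, except at D12, where libraries 3 and 4 (r = 0.994 with each other) stood apart from libraries 1 and 2 (r = 0.948 to 0.971 across the pairs). Differences of the members that touch D12 are therefore also given without libraries 3 and 4. D10 library 1 and D12 library 1 carried 206 and 202 CPM of Mb, the gene of myoglobin, against 4.83 to 23.2 in the other libraries of D10, D11 and D12. All 9 atrial cardiomyocyte markers (Myh6, Myl7, Nppa, Actn2, Tnnt2, Tnni3, Ryr2, Myl4 and Sln) were measured, and their summed level had a median of 13334 CPM at D0, 90397 at D9 and 21501 at D18.

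Ccnd1, the cyclin that couples growth factor signals to the kinases, was highest around D0 and D1 and lowest at D18. At D0 its 4 libraries measured 412, 402, 417 and 416 CPM, and at D1 427, 430, 428 and 428 CPM. At D2 they measured 282, 291, 274 and 279 CPM, and at D3 268, 261, 266 and 260 CPM. In CPM every D1 library thus stood slightly above D0 (log2 0.06), but this direction turned under quantile normalization (log2 -0.045) and in the TPM table (log2 -0.017), where D0 (248.8 to 258.7 TPM) and D1 (248.5 to 255.1 TPM) overlapped. Every D2 library lay below all libraries of D0 and D1. At D9 the values were 177, 159, 164 and 171 CPM, and at D10, with doxycycline back, 128, 143, 142 and 140 CPM. No library of D9 overlapped D0, and no library of D10 overlapped D9, although in TPM the ranges of D9 (73.6 to 87.5) and D10 (59.8 to 75.6) did overlap.

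Ccnd1 then moved in the other direction before it reached its lowest level. The D11 libraries measured 225, 168, 265 and 177 CPM and the D12 libraries 119, 161, 340 and 445 CPM. All 4 values of D11 lay above all 4 of D10, whereas D12 split into a pair below the D11 range and a pair above it. The D18 libraries measured 69.2, 82.3, 71.8 and 66.0 CPM, each below every library of any other day. At D9 the mean was lower by 1.29 on the log2(CPM + 0.5) scale than at D0 (SE 0.21), which is 411.75 ± 6.85 against 167.75 ± 7.89 CPM (SD, n = 4). At D18 it was lower by 1.21 again (SE 0.21), at 72.3 ± 7.06 CPM, and the mean at D18 was 0.176 times that at D0. The SE carries the spread of D12, because 1 spread per gene was fitted over all days.

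Ordered by mean, Ccnd1 ran from D1 (428.25 CPM) over D0, D2 (281.5), D12 (266.25), D3 (263.75), D11 (208.75), D9 and D10 (138.25) to D18. The place of D12 rested on libraries 3 and 4, since libraries 1 and 2 had a mean of 140 CPM, between D9 and D10. Neighbours in this order from D2 to D9 overlapped, while D1 and D0 (in CPM only), D0 and D2, D9 and D10 (in CPM only), and D10 and D18 did not. Markers of division went the other way at the end. Top2a, a topoisomerase of dividing cells, measured 837 to 924 CPM at D0, 1.05 to 2.24 at D9 and 1468 to 1701 at D18. Mki67, the proliferation antigen, measured 878 to 1046, 22.0 to 28.2 and 1767 to 2354 CPM on the same days. At D18 both division markers thus stood above D0 in every library while Ccnd1 stood below D0 in every library.

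**Figure D1:**
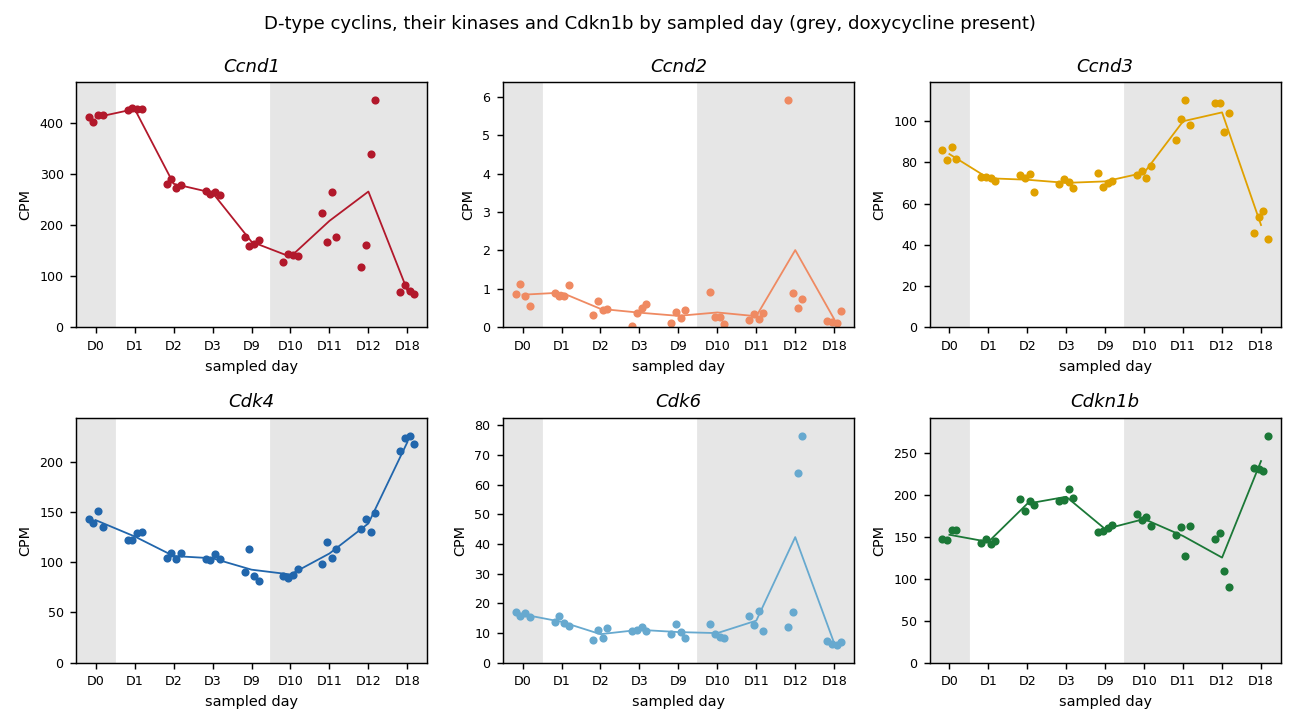
CPM of each of the 6 genes (vertical axes, from 0) on the 9 sampled days (horizontal axes). Points are single libraries, lines join the means, and grey marks days with doxycycline in the medium. Ccnd1 stands at 402 to 430 CPM on D0 and D1 and at 66.0 to 82.3 CPM on D18, while Cdk4 and Cdkn1b have their highest means on D18.

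A summed level of fibroblast markers moved with Ccnd1 in the first phase only. Of the 9 fibroblast markers 5 are rows of the table (Col1a2, Dcn, Lum and Tcf21 are not among the rows analysed here), and their sum was 270.9 to 293.4 CPM at D0, 9.86 to 14.6 at D9 and 8.55 to 12.7 at D18. Of the 3 tested, all were called lower at D9 than at D0. The part of these RNAs in the Ccnd1 values was not tested. Between D9 and D18, where Ccnd1 was lower again, the ranges of the fibroblast sum overlapped. Single markers did move there. Of the 3 tested, Thy1 was called higher (log2 2.35), Col3a1 was called lower (log2 -2.27) and 1 was not called.

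Ccnd3, the D-type cyclin prominent in cells that leave the cell cycle to differentiate, varied far less. It measured 86.1, 80.9, 87.4 and 81.6 CPM at D0, and 74.6, 67.9, 69.8 and 70.7 CPM at D9. From D1 to D10 its libraries stayed between 65.5 and 78.0 CPM. At D11 they measured 90.6, 101, 110 and 98.1 CPM, and at D12 109, 109, 94.9 and 104 CPM, above every library of D0. In TPM, however, the range of D0 (101.7 to 108.5) overlapped those of D11 (96.0 to 110.2) and D12 (107.2 to 123.4). At D18 the values were 45.8, 53.3, 56.4 and 42.8 CPM, below those of all other days. In TPM the D18 range (55.4 to 70.0) overlapped that of D9 (63.9 to 75.0). In CPM, Ccnd3 thus peaked at D11 and D12, in all 4 libraries of both days, and D12 libraries 3 and 4 did not stand out. In TPM the mean at D11 (104.9) was not above that at D0 (105.2).

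Between D0 and D9, Ccnd3 differed by log2 -0.25 (SE 0.07), and between D9 and D18 by -0.52 (SE 0.07, but -0.16 in the TPM table), neither of which was tested. Relative to the median of all genes in the TPM table, the second difference was -0.50. Against D0, Ccnd3 fell to D18 by log2 0.76 (limma, SE 0.07, adjusted p = 5.4e-11), a comparison that 52.0% of all tested genes passed. It rose from D10 to D11 (log2 0.41, SE 0.07, limma adjusted p = 1.9e-05) and fell from D12 to D18 (log2 -1.07, SE 0.07, limma adjusted p = 9.3e-14, and log2 -1.14 without D12 libraries 3 and 4). The lower level at D1 than at D0 (log2 -0.21, SE 0.07, limma adjusted p = 0.0351) rested on single libraries. Leaving out 1 library of these days at a time gave an adjusted p of up to 0.105, and 7 of the 8 libraries ended the call when left out, the exception being D0 library 2.

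Ccnd2, the third D-type cyclin, was near the detection limit. Its recovered reads were 20, 53, 13 and 13 at D0, 1, 5, 4 and 9 at D9, and 3, 2, 2 and 9 at D18. D3 library 1 held 0 reads, which allows up to 3 reads. The highest value by far was D12 library 1, with 102 reads or 5.91 CPM, against 0.5 to 0.886 CPM in the other libraries of D12. That library is 1 of the 2 with high Mb, and D10 library 1, the other, had the highest Ccnd2 of its day (0.920 CPM against 0.0897 to 0.266). Whether these readings belong together was not tested.

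Levels of different genes were compared in TPM, which accounts for transcript length. The TPM of the 3 cyclins together was 360.6 ± 5.51 at D0, 152.8 ± 10.5 at D9 and 108.7 ± 9.26 at D18 (SD, n = 4). Between days this sum also carries the shift of the median of all genes in TPM. That shift was log2 -0.35 for D9 against D0 and 0.34 for D18 against D9. Shares within a library do not carry it. Ccnd1 made up 70.4% ± 0.69 of the cyclin sum at D0, 53.7% ± 0.34 at D9 and 41.7% ± 2.21 at D18. Ccnd3 made up 29.2% ± 0.65, 46.0% ± 0.37 and 57.9% ± 2.34. Ccnd1 was thus the more abundant of the pair in every library of D0 and D9, and Ccnd3 in every library of D18. Ccnd3 was also ahead in every library of D10 (Ccnd1 to Ccnd3 ratio 0.855 to 0.969). The libraries of D11 (0.818 to 1.23) and D12 (0.540 to 2.10) lay on both sides. The share of Ccnd2 had a mean of at most 1.44% on any day, reached at D12 through library 1 with 4.55%.

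**Figure D2:**
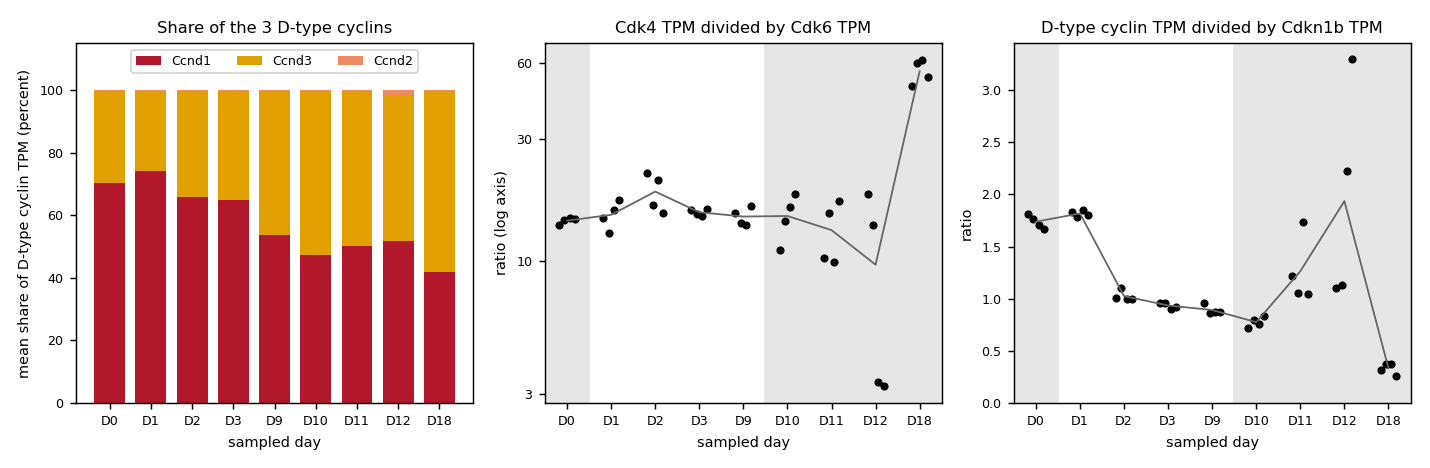
Left, the mean share of each D-type cyclin in their summed TPM (percent, bars stacked from 0) by sampled day. Middle and right, the ratio of Cdk4 to Cdk6 TPM (log axis) and the ratio of summed D-type cyclin TPM to Cdkn1b TPM, with 1 point per library, lines through the means, and grey for days with doxycycline. The D18 libraries have the highest kinase ratios (48.3 to 61.6) and the lowest cyclin to Cdkn1b ratios (0.258 to 0.375).

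Cdk4, the main catalytic partner of the D-type cyclins in these cells by TPM, was lower during differentiation and highest at D18. Its libraries measured 143, 139, 151 and 135 CPM at D0 and 90.0, 113, 86.0 and 81.6 CPM at D9. At D10 they measured 85.9, 84.8, 87.0 and 93.8 CPM, and at D11 98.1, 120, 104 and 113 CPM. The D10 values lay inside the D9 range, and the D11 values lay above all of D10. At D12 the libraries measured 133, 143, 130 and 149 CPM and at D18 211, 224, 226 and 218 CPM, each D18 value above every library of any other day. D12 libraries 3 and 4 again did not stand apart for Cdk4.

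The differences of Cdk4 were log2 -0.62 (SE 0.07) between D0 and D9 and log2 1.25 (SE 0.07) between D9 and D18, described and not tested. At D18, Cdk4 stood above D0 (log2 0.63, SE 0.07, limma adjusted p = 8.1e-09), opposite in direction to Ccnd1 and Ccnd3. It rose at each of the last 3 steps, from D10 to D11 (log2 0.30, limma adjusted p = 0.00161), from D11 to D12 (log2 0.35, limma adjusted p = 0.0002, or 0.0533 with the libraries of only these days in the fit) and from D12 to D18 (log2 0.66, limma adjusted p = 6.4e-09). Without D12 libraries 3 and 4 the last 2 of these were log2 0.35 and 0.67 (limma adjusted p = 0.00236 and 1.54e-07). Cdk4 also fell from D1 to D2 (log2 -0.24, SE 0.07, limma adjusted p = 0.00658). A lower level at D9 than at D3 (log2 -0.18, SE 0.07, limma adjusted p = 0.0436) did not hold with edgeR (adjusted p = 0.0617) or DESeq2 (adjusted p = 0.148) on recovered reads. Leaving out 1 library of D3 or D9 at a time gave an adjusted p of up to 0.198, and 7 of the 8 libraries ended that call, the exception being D9 library 2.

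The stretch upstream of the Cdk4 start is shown because Cdk4 is a textbook target of Myc, a factor that binds the E-box CACGTG, and because Cdk4 is the cyclin partner that was highest when division had resumed. RefSeq's window before the start on assembly GRCr8 (chr7:64771203-64771452, + strand, 250 bases, 5′ to 3′) reads as follows, with E-boxes in capitals.
Cdk4 upstream: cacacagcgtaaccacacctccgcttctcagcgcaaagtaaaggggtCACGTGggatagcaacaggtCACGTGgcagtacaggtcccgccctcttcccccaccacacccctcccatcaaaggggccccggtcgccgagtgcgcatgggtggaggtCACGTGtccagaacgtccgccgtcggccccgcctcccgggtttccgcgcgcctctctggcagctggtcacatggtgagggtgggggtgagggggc
The 3 matches begin 203, 183 and 95 bases upstream of the start. CACGTG is its own reverse complement, so a match counts for both strands. Of the 33465 rat windows of the same table, cut to the same 250 bases, 5.59% hold the motif and 17 windows (0.0508%) hold it at least 3 times. The E-box was 1 of 6 motifs searched, and the other 5, each on both strands, had 0 matches in the Cdk4 window. These were the E2F sites TTTGGCGC (in 0.412% of windows) and TTTCCCGC (0.813%), the CRE TGACGTCA (1.59%), the AP-1 site TGACTCA (4.05%) and CCAAT (34.0%). A match is a description of letters and not of binding. Windows were also found for Ccnd3 and Cdkn1b, with 1 and 2 matches of CCAAT and 0 of the other 5 motifs. Myc itself measured 6.56 to 7.01 CPM at D0, 1.98 to 2.85 at D9 and 5.61 to 6.88 at D18. Whether Myc bears on the Cdk4 level in these cells was not tested.

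Cdk6, the second kinase partner, was a minor species next to Cdk4. It measured 17.1, 15.9, 16.9 and 15.3 CPM at D0, 9.65, 13.2, 10.2 and 8.19 CPM at D9, and 7.19, 6.19, 6.04 and 6.83 CPM at D18. The CPM ranges of D0, D9 and D18 did not overlap, in falling order, whereas in TPM those of D9 (10.6 to 16.0) and D18 (9.59 to 12.0) did. At D12 libraries 1 and 2 measured 12.0 and 17.0 CPM, and libraries 3 and 4 measured 63.9 and 76.5 CPM, the highest values of the series. The Cdk4 to Cdk6 ratio in TPM was 14.4 ± 0.36 at D0 and 14.9 ± 1.21 at D9, whereas it was 55.5 ± 6.17 at D18 (SD, n = 4). At D12 the ratio was 18.2 and 13.8 in libraries 1 and 2 but 3.34 and 3.21 in libraries 3 and 4.

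Between D0 and D9, Cdk6 differed by log2 -0.65 (SE 0.31), and between D9 and D18 by -0.60 (SE 0.31, but -0.27 in the TPM table), both described only. Relative to the median of all genes in the TPM table, the second difference was -0.61. Cdk6 fell from D0 to D18 (log2 -1.25, SE 0.31, limma adjusted p = 0.00125). The rise from D11 to D12 (log2 1.16, SE 0.31, limma adjusted p = 0.00383) came from libraries 3 and 4. Without them it was log2 0.03 (limma adjusted p = 0.918). From D12 to D18 Cdk6 fell by 2.20 on the log2 scale (limma adjusted p = 1.0e-06), and without those libraries by 1.07 (limma adjusted p = 1.44e-05).

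Cdkn1b RNA was higher at D18 than on any other day. The libraries measured 147, 146, 158 and 158 CPM at D0 and 155, 157, 160 and 164 CPM at D9, ranges that overlap. In between lay a higher level, with 195, 181, 193 and 188 CPM at D2 and 193, 194, 207 and 196 CPM at D3. At D18 the values were 232, 230, 228 and 270 CPM. The inhibitor's RNA was thus high in CPM on D2 and D3, without doxycycline, and highest at D18, when the division markers were highest. In TPM, D2 (202.3 to 223.5) overlapped D0 (199.8 to 217.0), while D3 (225.7 to 237.6) lay above D0 and D9 (160.7 to 179.9) below it.

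Cdkn1b differed by log2 0.06 (SE 0.10) between D0 and D9, a direction that turned under other scalings, and by log2 0.59 (SE 0.10) between D9 and D18, both without a test. It was higher at D18 than at D0 (log2 0.65, SE 0.10, limma adjusted p = 1.7e-06). Cdkn1b rose from D1 to D2 (log2 0.40, SE 0.10, limma adjusted p = 0.00164), although in the TPM table this step was log2 0.20 with an adjusted p of 0.138 (limma). It fell from D3 to D9 (log2 -0.31, SE 0.10, limma adjusted p = 0.0109) and rose from D12 to D18 (log2 0.97, SE 0.10, limma adjusted p = 2.4e-09), by log2 0.67 without D12 libraries 3 and 4 (limma adjusted p = 1.51e-08). The lower level at D12 than at D11 (log2 -0.30, SE 0.10, limma adjusted p = 0.0175) was log2 0.0041 without D12 libraries 3 and 4 (limma adjusted p = 0.977). Leaving out D12 library 3 or 4, or D11 library 2 or 4, alone also ended the call (limma adjusted p = 0.0569 to 0.181). The summed D-type cyclin TPM was 1.74 ± 0.06 times that of Cdkn1b at D0, 0.890 ± 0.05 times at D9 and 0.330 ± 0.05 times at D18 (SD, n = 4), with no overlap between these days. Nothing is read from that, since the sum includes Ccnd1, by which the genes were picked. In between, the ratio at D10 (0.717 to 0.828) lay below every library of D9 (0.859 to 0.961), and at D11 (1.05 to 1.74) it lay above them. At D12 it was 1.10 and 1.13 in libraries 1 and 2, and 2.22 and 3.30 in libraries 3 and 4.

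The tests cover Ccnd3, Cdk4, Cdk6 and Cdkn1b. All 4 were called between D0 and D18, Cdk4 and Cdkn1b up and Ccnd3 and Cdk6 down, where 28.8% of all tested genes were called up and 23.2% down. That comparison adds up the untested ones, so these calls are not independent of how the genes were picked. From D0 to D1, 1 of 4 was called (Ccnd3, lower), against 12.3% of all tested genes, or 4.39% called lower. From D1 to D2, Cdk4 was called lower and Cdkn1b higher, with 41.6% of all genes called. From D3 to D9, Cdk4 and Cdkn1b were called lower, with 43.4% of all genes called and 25.0% called lower. At the steps from D2 to D3 and from D9 to D10, limma called 0 of 4, where 12.6% and 3.67% of all genes were called. At an unadjusted p under 0.05 that count was also 0, as it was with edgeR and with DESeq2.

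In the following step, from D10 to D11, Ccnd3 and Cdk4 were called higher, with 25.6% of all genes called and 15.7% called higher. Without D12 libraries 3 and 4 in the fit, Cdk6 was also called higher at this step (log2 0.48, limma adjusted p = 0.0101) and Cdkn1b lower (log2 -0.19, limma adjusted p = 0.0160). From D11 to D12, Cdk4 and Cdk6 were called higher and Cdkn1b lower (40.0% of all genes called), and of these the Cdk4 call held without D12 libraries 3 and 4. All 4 genes were called from D12 to D18, Cdk4 and Cdkn1b higher and Ccnd3 and Cdk6 lower, with 49.0% of all genes called. Outside the tests, 4 of the 5 fitted members (Ccnd1, Ccnd3, Cdk4 and Cdk6) were lower at D9 than at D0 without overlap. In that comparison 70.3% of all genes had no overlap and 71.4% were called. From D9 to D18, all 5 had no overlap in CPM (Ccnd3 and Cdk6 overlapped in TPM), with Ccnd1, Ccnd3 and Cdk6 lower and Cdk4 and Cdkn1b higher, where 62.6% of all genes had no overlap and 66.1% were called. Nothing is read from these last counts, which the choice of the genes used.

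**Figure D3:**
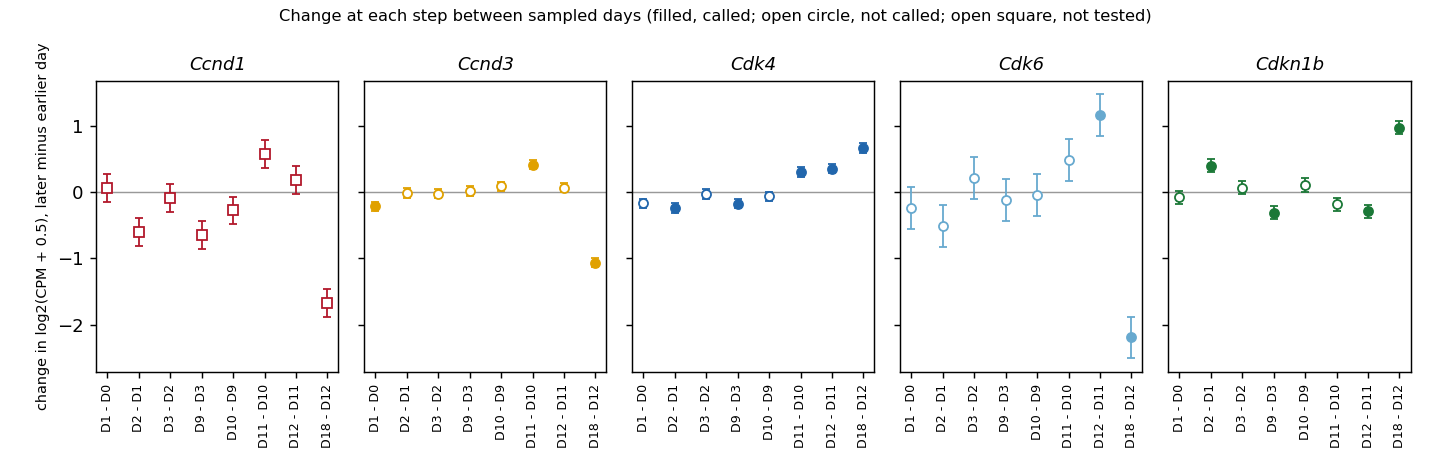
Change in log2(CPM + 0.5) at each of the 8 steps between sampled days (vertical axes, later minus earlier day; bars are ± 1 SE of the limma fit) for the 5 genes that passed the filter. Filled circles were called at an adjusted p under 0.05, open circles were not, and open squares (Ccnd1) were not tested. With all D12 libraries, the step from D12 to D18 separates Ccnd1, Ccnd3 and Cdk6 (-1.07 to -2.20) from Cdk4 and Cdkn1b (0.66 and 0.97).

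The libraries of D11 and D12 differed among themselves in these genes. At D11, libraries 1 and 3 had more Ccnd1 (225 and 265 CPM) than libraries 2 and 4 (168 and 177 CPM) and less Top2a (131 and 220 CPM against 393 and 397). D11 library 3 also had the least Cdkn1b of its day, 127 CPM against 152 to 163. At D12, libraries 3 and 4 had more Ccnd1 and Cdk6 and less Cdkn1b (109 and 90.3 CPM against 147 and 154). Top2a did not split that pair from the rest, with 1122 and 869 CPM in libraries 1 and 2 and 1087 and 952 CPM in libraries 3 and 4.

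Fosl1 and Myc, named after their values were seen, were also higher in D12 libraries 3 and 4. Fosl1, an AP-1 subunit and a transcriptional input to cyclin D1, measured 0.202 and 1.54 CPM in D12 libraries 1 and 2 and 65.7 and 87.2 CPM in libraries 3 and 4. Myc measured 5.91 and 10.9 CPM against 35.3 and 46.1 CPM. Myh6, a cardiac myosin heavy chain gene, was lower in libraries 3 and 4 (4599 and 4750 CPM) than in libraries 1 and 2 (24449 and 11017 CPM). These samples carry the same labels, so the source of the split was not tested. With all libraries, Ccnd1 differed by log2 0.18 from D11 to D12 and by -1.68 from D12 to D18. Without libraries 3 and 4 these differences were log2 -0.57 and -0.94.

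**Figure D4:**
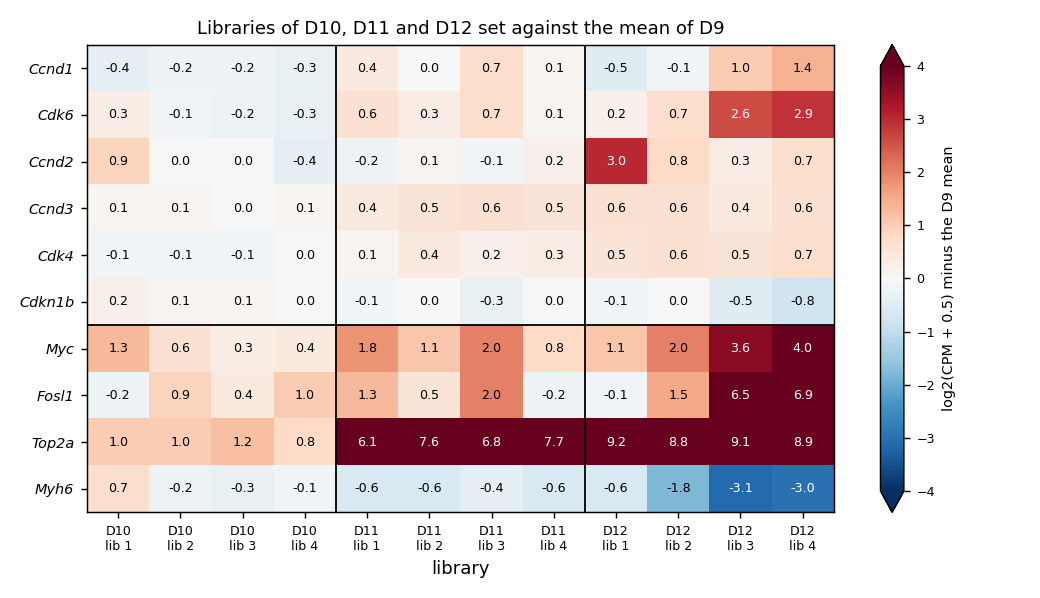
Heat map of log2(CPM + 0.5) minus the D9 mean for the 6 genes and 4 reference genes (rows) in the 12 libraries of D10, D11 and D12 (columns). Numbers in the cells are that difference, and colours saturate at the ends of the bar. D12 libraries 3 and 4 differ from libraries 1 and 2 in Ccnd1, Cdk6, Cdkn1b, Myc, Fosl1 and Myh6, and D12 library 1 stands out for Ccnd2.

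The other genes of the pathway are set beside all tested genes, of which 34.4% were called higher and 37.0% lower at D9 than at D0, and 33.6% higher and 32.5% lower at D18 than at D9. Among the other inhibitors of these kinases, 5 of 6 genes were tested. Between D0 and D9, 2 were called higher and 2 lower (median log2 0.04 against -0.02 over all genes, and negative under quantile normalization and in the TPM table). Cdkn1c, which encodes p57, rose from 22.4 to 27.8 CPM at D0 to 131 to 178 CPM at D9 (log2 2.51, SE 0.30). Cdkn2b, the p15 gene, rose (log2 0.54), whereas Cdkn2c, the p18 gene, fell (log2 -1.10, SE 0.16). Cdkn2a, which encodes p16 and an ARF protein, fell by 0.38 on the log2 scale. Of the 5, the TPM table called 1 higher and 3 lower. Cdkn1a, the p21 gene, was not called (log2 0.04, limma adjusted p = 0.723), but its libraries had stood at 1025 to 1146 CPM on D1 against 442 to 477 CPM on D0.

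Between D9 and D18, 1 of these inhibitors was called higher and 3 lower (median log2 -1.32 against 0.00 over all genes). Cdkn1c fell by 2.05 on the log2 scale, Cdkn1a by 1.43 and Cdkn2b by 1.32. Cdkn2c rose by log2 1.97 (SE 0.16) and Cdkn2a was not called (log2 0.08, limma adjusted p = 0.648). At D18, Cdkn1b and Cdkn2c were thus above D0, while Cdkn1a had fallen below it (log2 -1.39, SE 0.10). Of the 5 other inhibitors tested, 1 was called higher and 2 lower at D18 than at D0.

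The targets of the kinases and what they release behaved as follows. Of the retinoblastoma family, Rbl1, which encodes p107, fell from D0 to D9 (log2 -4.01, SE 0.13) and rose to D18 (log2 4.32). Rb1 also fell (log2 -0.34, limma adjusted p = 0.0123) and rose (log2 0.44), whereas Rbl2, which encodes p130, rose (log2 0.58) and fell (log2 -0.63). The TPM table did not call Rbl2 in either phase. Of 10 E2F and DP factors, 7 were called lower and 2 higher between D0 and D9 (median log2 -1.73), with the repressors E2f7 (log2 -5.94, SE 0.24) and E2f8 (log2 -5.62, SE 0.25) in front. From D9 to D18, 8 were called higher and 1 lower (median log2 1.46), again led by E2f8 (log2 7.12) and E2f7 (log2 6.68).

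Late cyclins and kinases went down and up together. All 6 tested were called lower at D9 than at D0 (median log2 -5.77) and higher at D18 than at D9 (median log2 5.97), with Ccna2 (log2 -7.68, then 8.12), the S phase cyclin, and Cdk1 (log2 -7.43, then 7.79), the kinase of mitotic entry, in front. Of these 6, limma called 1 between D0 and D18 (Cdk2, log2 0.46), or 3 higher under quantile normalization, while 52.0% of all tested genes were called on the CPM scale. All 10 genes listed as S phase targets of E2F were likewise called lower and then higher, such as Mcm5, a subunit of the replicative helicase (log2 -7.64, then 7.89). The list includes Mki67, which is used above as a marker of division. Rrm2, a ribonucleotide reductase subunit, led in the first phase with Mcm5 (log2 -7.26), and Cdc6, a licensing factor, in the second (log2 7.35). Between the end points D9 and D18 the medians of the E2F targets and late cyclins were log2 5.04 and 5.97, against -1.21 for Ccnd1. Within that phase, from D10 to D11, all 10 E2F targets and all 6 late cyclins were called higher (median log2 3.27 and 3.81) while Ccnd1 was higher too (log2 0.57, not tested).

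**Figure D5:**
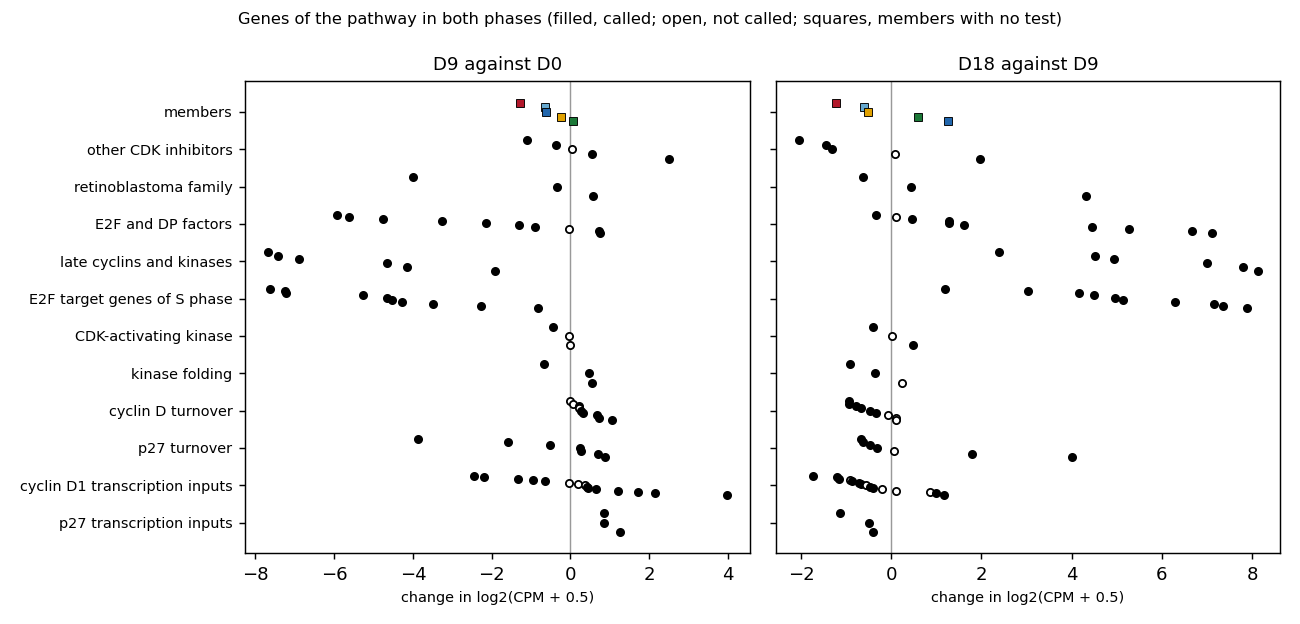
Change in log2(CPM + 0.5) between D0 and D9 (left) and between D9 and D18 (right) for the tested genes of each list (rows). Filled circles were called at an adjusted p under 0.05, open circles were not, and coloured squares are the 5 members, which carry no test here. The E2F targets and the late cyclins lie left of 0 in the first phase and right of 0 in the second, while the members lie between -1.29 and 1.25.

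Other genes act on the proteins of this group. Of 9 genes of cyclin D turnover, 6 were called higher and 0 lower between D0 and D9 (median log2 0.27), and 0 higher and 6 lower between D9 and D18 (median log2 -0.47). Cul4a, a ubiquitin ligase scaffold, rose by log2 1.04 and then fell by 0.77. Fbxo31, an F-box protein that targets cyclin D1, rose by log2 0.73 and fell by 0.93, and Cryab, a chaperone that acts with Fbxo4 on cyclin D1, fell by 0.94 in the second phase. In the TPM table the first of these counts was 3 higher and 2 lower, and the second 3 higher and 4 lower, so that the counts depend on the scaling. Relative to the median of all genes, the list median was 0.29 and then -0.47 on the CPM scale. It was 0.28 and -0.45 in the TPM table, and 0.13 and -0.23 under quantile normalization.

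Turnover genes of p27 were mixed. Of 7, 4 were called higher and 3 lower between D0 and D9 (median log2 0.23, and negative under quantile normalization and in the TPM table). Skp2, the F-box protein that marks p27 for destruction, fell (log2 -3.88, SE 0.17), as did Cks1b, its cofactor (log2 -1.59). Both rose again by D18, Skp2 by log2 4.02 and Cks1b by 1.78, the day on which Cdkn1b RNA was highest, while 4 of the other genes of the list were called lower. For that phase the list had 2 higher and 4 lower (median log2 -0.32), but 3 higher and 2 lower in the TPM table (median log2 0.036). Of 3 FoxO factors that transcribe Cdkn1b, all were called higher at D9 than at D0, led by Foxo4 (log2 1.26) and Foxo3 (log2 0.85), and lower at D18 than at D9, led by Foxo4 (log2 -1.13) and Foxo1 (log2 -0.48). Of the 3, 1 was called in the second phase in the TPM table.

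Transcriptional inputs to cyclin D1 did not share 1 direction. Of 15 tested, 7 were called higher and 5 lower between D0 and D9, and 2 higher and 8 lower between D9 and D18 (median log2 0.37, then -0.55). In the TPM table these counts were 5 higher and 6 lower, then 3 higher and 6 lower. Egr1, an immediate early factor, rose by log2 3.97 (SE 0.45) in the first phase, while Fosl1 fell by 2.45 (SE 0.80). In the second phase Fosl2, an AP-1 subunit, fell by 1.73 on the log2 scale and Mycn, a Myc family factor, by 1.20. Of 3 genes of the kinase that activates CDKs, limma called Mnat1 lower at D9 (log2 -0.44) and higher at D18 (log2 0.48), and Cdk7 lower at D18 (log2 -0.41). The TPM table instead called all 3 lower at D9, and then 2 higher and 0 lower at D18 than at D9. Of 3 kinase folding genes, Hsp90ab1 rose (log2 0.54) and fell (log2 -0.90), Hsp90aa1 fell between D0 and D9 (log2 -0.66), and Cdc37, the kinase cochaperone, fell in the second phase (log2 -0.35). Of the 3, 1 was called higher and 1 lower in the second phase in the TPM table (median log2 0.0092), where the CPM fit called 0 higher and 2 lower.

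The genes whose pattern was most like that of each member were found by Pearson's r of log2(CPM + 0.5) over the 36 libraries, which share days and scaling, so that r is a description. For Ccnd1 they were Ltbp1 (r = 0.950), Enpp1 (r = 0.943) and Sync (r = 0.935). For Cdk4 they were Hnrnpul1 (r = 0.967), Tcf3 (r = 0.943) and Nelfe (r = 0.943). For Cdkn1b they were Hp1bp3 (r = 0.954), Dnajc13 (r = 0.889) and Etl4 (r = 0.871). Ccnd3 had weaker neighbours in Chtf8 (r = 0.828), Cryab (r = 0.824) and Cdipt (r = 0.820). Those of Cdk6, Acot9 (r = 0.930), Cct4 (r = 0.927) and Odc1 (r = 0.917), leaned on D12, since r without libraries 3 and 4 was 0.839, 0.784 and 0.754.

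Markers of other cell types were few among the rows. Of 5 macrophage markers 2 were tested, with sums of 5.10 to 6.39 CPM at D0, 0.648 to 1.05 at D9 and 0.660 to 1.13 at D18. Of 5 Schwann cell and neuron markers 2 were tested, with sums of 5.44 to 6.20, 4.53 to 5.35 and 5.08 to 6.07 CPM on these days. Of 5 endothelial markers 2 were tested, with sums of 16.4 to 21.8, 248.5 to 286.9 and 186.3 to 208.0 CPM. All 5 smooth muscle markers were tested, with sums of 9292 to 9619, 18514 to 21866 and 7523 to 8725 CPM. The macrophage sum was, like Ccnd1, lower at D9 than at D0 in every library, and its part in the Ccnd1 values was not tested.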

How the data were processed

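Poly(A) RNA of 36 iAM-1 samples (9 days, 4 libraries each) was sequenced in pairs after a strand-specific (directional) preparation, per the labels' protocols. The authors deposited a table of CPM, a signal checked here to be (reads + 0.5) times 1 step per column: once the 0.5 read in every value is taken off, 100% of the values up to 20 reads lay within 0.1 of a whole number. Reads were recovered on that basis, and 760 of 12948 rows hold 0 reads in at least 1 library. The step was 0.0211 to 0.0722 CPM per read, and columns do not sum to 1e+06. The TPM table deposited by the authors holds the same measurement per transcript length, in TPM per the file headers, scaled to 1e+06. Rnor_6.0 and edgeR 3.26.8 stand in the submitters' processing notes, without a role, while aligner and counter are not given here. The design had planned for plain CPM.

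Days were tested on log2(CPM + 0.5) by limma 3.58.1 under R 4.3.3, with the trend option of eBayes. This scale understates changes of low genes. The fit took 12492 rows at 1 CPM or more in at least 4 libraries (12487 rat genes and 5 construct rows), all 36 libraries in 1 fit and 27 residual degrees of freedom. Adjusted p is Benjamini-Hochberg over all rows tested, and called means adjusted p under 0.05. The median SD of a gene within a day ran from 0.0728 (D1) to 0.252 (D12) on the log2 scale. The script was tested on simulated data. Alternatives were edgeR 4.0.16 and DESeq2 1.42.0 on recovered reads, other pseudocounts (0.1 and 1), filters, scalings and libraries. Named genes were the members, the 3 genes most alike to each fitted member, the 2 called genes with the largest changes per list and phase, all inhibitors and retinoblastoma genes, Top2a, Mki67 and the T antigen. Fosl1, Myc, Mb and Myh6 values of single libraries were named after they were seen. The members and lists were chosen with earlier results of these data known. 1 D1 column matches none of the 4 D1 labels exactly, so it serves as the unnumbered D1 library, and 0 columns lacked a day. Libraries of a day differed by a mean chi-square of at least 1.95 per gene, where sampling noise gives about 1, so none was counted as a copy. Depth limits cover counting error only.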

Additional observations from a re-analysis of the deposited data

Results flagged for a closer look

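In 4 of 54 sets of 4 libraries (a gene on a day), the highest library lay apart from the other 3, with a gap to the nearest beyond Dixon's 95% limit. Chance gives about 1 in 20. Ccnd2 at D12 reached 5.91 CPM in library 1, and at D18 0.431 CPM in library 4. The second of these is 9 reads against 2 or 3 in the other libraries. Cdk4 at D3 stood at 108 CPM in library 3 against 102 to 103 in the others. Cdkn1b at D18 stood at 270 CPM in library 4 against 228 to 232.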

How the results depend on the processing

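With 4 libraries per day, 1 library can decide a weak call, and the days D10 to D12 spread most. Ccnd2 is limited by depth. The median of all genes shifted by log2 -0.35 (D9 against D0) and 0.34 (D18 against D9) in the TPM table, and by -0.13 (D18 against D9) under quantile normalization. Relative to that median, Ccnd1 in the TPM table changed by -1.28 and -1.19, Cdk4 by -0.62 and 1.27, and Cdkn1b by 0.07 and 0.61. Ccnd3 changed by -0.23 and -0.50, and Cdk6 by -0.64 and -0.61, relative to the same median. The share of calls that were higher moved with it, from 48.2% to 27.1% for D9 against D0 and from 50.9% to 77.0% for D18 against D9 in the TPM table, and to 40.2% for the latter under quantile normalization. In the steps it moved by over 10 points in the TPM table for D1 against D0 (64.3% to 37.0%), D2 against D1 (51.9% to 20.2%), D9 against D3 (42.3% to 27.6%), D10 against D9 (65.5% to 85.8%), D12 against D11 (46.8% to 66.6%) and D18 against D12 (52.0% to 74.7%), under quantile normalization for D1 against D0 (51.5%), D3 against D2 (23.1% to 43.4%) and D11 against D10 (61.5% to 43.8%), and with median-of-ratios scaling for the latter (48.6%).

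Members without a test moved by more than their replicate spread in the TPM table for D9 against D0 (Ccnd1 -1.63, Ccnd3 -0.58, Cdk4 -0.96, Cdk6 -0.99) and for D18 against D9 (Ccnd1 -0.85, Ccnd3 -0.16, Cdk4 1.61, Cdk6 -0.27, Cdkn1b 0.95). Under quantile normalization these values were -1.48 for Ccnd1 and -0.42 for Cdk6 in D9 against D0, -0.89 for Cdk6 and 0.78 for Cdkn1b in D18 against D9, and -2.64 for Ccnd1 in D18 against D0. Cdkn1b in D9 against D0 turned to -0.052 (quantile) and -0.27 (TPM), and Ccnd1 in D1 against D0 to -0.045 and -0.017. Cdkn1b in D12 against D11 turned to 0.0041 without D12 libraries 3 and 4, a setting chosen after seeing the data. Against D0, the calls at D18 of Ccnd3, Cdk4, Cdk6 and Cdkn1b held under every alternative run, with adjusted p up to 0.00428.

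Counts of called genes moved by over 1.5 times with only the 2 days compared in the fit: D1 against D0 gave 5267 (all days 1537), D2 against D1 7928 (5191), D3 against D2 4195 (1579), D10 against D9 119 (458), D11 against D10 1897 (3192), D12 against D11 1155 (4995) and D18 against D12 3581 (6116). Fewer libraries set the spread there. D1 against D0 gave 2445 without D12 libraries 3 and 4, 2310 without D10 library 1 and D12 library 1, and 3980 without all libraries of D10 to D12, all chosen after seeing the data. The last gave 3725 for D3 against D2, and the first 981 for D10 against D9. Quantile normalization gave 288 for D10 against D9, and leaving out 1 library each gave 234 to 616 there, with the lowest 2 from D9 libraries 2 and 3 (234 and 301). The cause of these shifts was not tested. With the replicate block, D1 against D0 gave 1007 calls (35 libraries, without the unnumbered one), and Ccnd3 at that step had an adjusted p of 0.0994, against 0.0729 for the same 35 libraries without the block, so that leaving out the unnumbered library alone ended that call. The libraries were not taken as paired: deviations of same-numbered libraries correlated at a mean r of 0.0174, with 21 of 136 pairs over 0.1. However, 18 of 35 libraries were closest on average to their own number, where 4 unrelated numbers would give about 1 in 4, a hint from the data and not from the design.

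Among single steps, Cdk4 in D1 against D0 was called under quantile normalization, in the TPM table, by DESeq2, in the fit of only these days and the fit without D9 library 2 (adjusted p 0.00167 to 0.0398), and Cdk6 in D2 against D1 without D12 libraries 3 and 4 (adjusted p = 0.00425). Without a filter Ccnd2 was tested, at log2 -0.93 for D18 against D0 (limma adjusted p = 0.0222) and 1.22 for D12 against D11 (limma adjusted p = 0.00471), the latter with library 1 at 5.91 CPM. With only the 2 days in the fit, Cdk6 and Cdkn1b in D12 against D11 had adjusted p of 0.204 and 0.301.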
